A study of Mus musculus with 15 samples.

Results

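Lyz1, Ang4, Mmp7, Mptx2, Itln1 and Pla2g2a encode proteins that Paneth cells release besides their alpha-defensins, or that act on those defensins. They were taken by gene name from a table of 4178 genes, of which these 6 were the members described. They were selected on values of the same libraries, with their TPM and its differences between groups already known. Those differences, and whether a member passed the threshold applied to all genes, are therefore given as a description and not as support. RNA was measured in whole ileum of adult C57BL/6 mice raised germ-free. Control mice received sterile PBS and served as the germ-free group, and the other groups received 1 bacterium each, Ruminococcus gnavus (RG) or Lacticaseibacillus rhamnosus GG (LGG, named Lactobacillus rhamnosus GG in the title). Each mouse was gavaged with 200 µl and tissue was taken 21 days later, from 5 mice in each group with 1 library per mouse. Colonization was checked by PCR on fecal DNA, per the series' design text. Bacterial numbers in the ileum were not analysed here, and the labels give no sex, litter, cage or batch.

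Paneth cells sit at the base of the crypts of the small intestine and are most frequent in the ileum. They pack antimicrobial proteins into dense granules and release them into the crypt lumen, where these act on bacteria and shield the neighbouring stem cells. Lysozyme cuts the peptidoglycan wall of bacteria, angiogenin 4 is a bactericidal ribonuclease, secreted phospholipase A2 attacks bacterial membrane lipids, and intelectin binds sugars found on microbes. In mice, matrilysin (Mmp7) cuts the precursors of alpha-defensins into their active form. Itln1 and Ang4 are also known from mouse goblet cells, the mucus-secreting cells of the same epithelium. In whole tissue, fewer Paneth cells and less of a transcript in each Paneth cell cannot be told apart.

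On GRCm38 with the GENCODE M21 annotation, Lyz1 (ENSMUSG00000069515) lies on chromosome 10, 117287797 to 117292868, minus strand. Ang4 (ENSMUSG00000060615) lies on chromosome 14, 51763878 to 51773590, minus strand, and Mmp7 (ENSMUSG00000018623) on chromosome 9, 7692090 to 7699585, plus strand. Mptx2 (ENSMUSG00000079180) and Itln1 (ENSMUSG00000038209) are both on the minus strand of chromosome 1, at 173274382 to 173277777 and 171518122 to 171535294. Pla2g2a (ENSMUSG00000058908) lies on chromosome 4, 138831857 to 138835186, plus strand. It is annotated as a polymorphic pseudogene, whereas the others are annotated as protein coding. C57BL/6 mice are known to carry a frameshift in Pla2g2a that abolishes its enzyme, so its values describe a transcript and not an active phospholipase.

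Since all members were lower in LGG than in the other groups, by group mean, the 130 bases before the start of transcription are shown for the 5 members with a RefSeq promoter entry on GRCm38.p6, 5′ to 3′ on the strand of the gene. Capitals mark the matches found.
Lyz1: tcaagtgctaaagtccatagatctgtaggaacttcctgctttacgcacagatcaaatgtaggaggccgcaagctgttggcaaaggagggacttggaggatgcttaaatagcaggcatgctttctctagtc
Ang4: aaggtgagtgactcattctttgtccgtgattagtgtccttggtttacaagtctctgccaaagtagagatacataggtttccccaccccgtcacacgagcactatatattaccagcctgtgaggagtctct
Mmp7: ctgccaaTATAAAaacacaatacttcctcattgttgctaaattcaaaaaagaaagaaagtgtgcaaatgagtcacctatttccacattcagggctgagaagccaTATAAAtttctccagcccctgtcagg
Mptx2: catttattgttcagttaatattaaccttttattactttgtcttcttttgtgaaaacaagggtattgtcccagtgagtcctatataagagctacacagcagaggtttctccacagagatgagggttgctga
Itln1: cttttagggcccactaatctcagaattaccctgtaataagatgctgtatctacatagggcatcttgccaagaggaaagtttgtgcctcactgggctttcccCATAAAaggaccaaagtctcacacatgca
The windows are chr10:117292869-117292998 (minus strand) for Lyz1, chr14:51773591-51773720 (minus strand) for Ang4, chr9:7691960-7692089 (plus strand) for Mmp7, chr1:173277757-173277886 (minus strand) for Mptx2 and chr1:171535295-171535424 (minus strand) for Itln1. The RefSeq start of Mptx2 lies 21 bases from its GENCODE start, and at the other 4 genes both starts are the same.

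Over the 250 bases before each start, 4 motifs were searched on both strands. The TATA box core was searched as TATAAA. The core bound by the TCF/LEF factors of Wnt signalling was searched as CTTTGA, and the E-box of helix-loop-helix factors as CAGCTG. For the core bound by CDX-type factors of intestinal epithelium the letters were CATAAA. No match overlapped another. Mmp7 held TATAAA at 26 to 21 and at 123 to 118 bases before its start, and 12.4% of 32851 windows of the same length held this motif or its reverse complement. Itln1 held CATAAA at 29 to 24 bases before its start, against 10.8% of the windows. This is close to the distance of the nearer TATAAA in Mmp7, and whether any factor binds these letters was not tested. CTTTGA and CAGCTG, found in 13.8 and 13.0% of the windows, had no match in the windows of the 5 genes, which says only that these letters are not there. The same holds for TATAAA and CATAAA, since other forms of these elements were not searched. The Mptx2 window, for example, holds TATATAAG, which the search did not count.

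Levels are TPM, the share of a library's transcripts that a gene makes up, corrected for transcript length, and can be compared between genes. All 6 members were at 1 TPM or more in all 15 libraries and all were tested. In germ-free mice Lyz1 was the 16th of the 4178 listed genes by mean TPM (7195 ± 1281, SD, n = 5). Ang4 (1773 ± 1476) and Itln1 (1233 ± 329) followed, then Mmp7 (364 ± 29.2) and Mptx2 (309 ± 175), and Pla2g2a was far lower at 11.9 ± 3.20 TPM. Neighbours in this order overlapped between Ang4 and Itln1 and between Mmp7 and Mptx2. Lyz1 was the highest and Pla2g2a the lowest member in each of the 5 mice. In PBS mouse 1, however, Ang4 came close to Lyz1, at 4409 against 5234 TPM. Together the members made up 1.09% ± 0.0950 of a library's TPM in germ-free mice (PBS), 1.22% ± 0.375 with RG and 0.135% ± 0.102 with LGG.

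**Figure D1:**
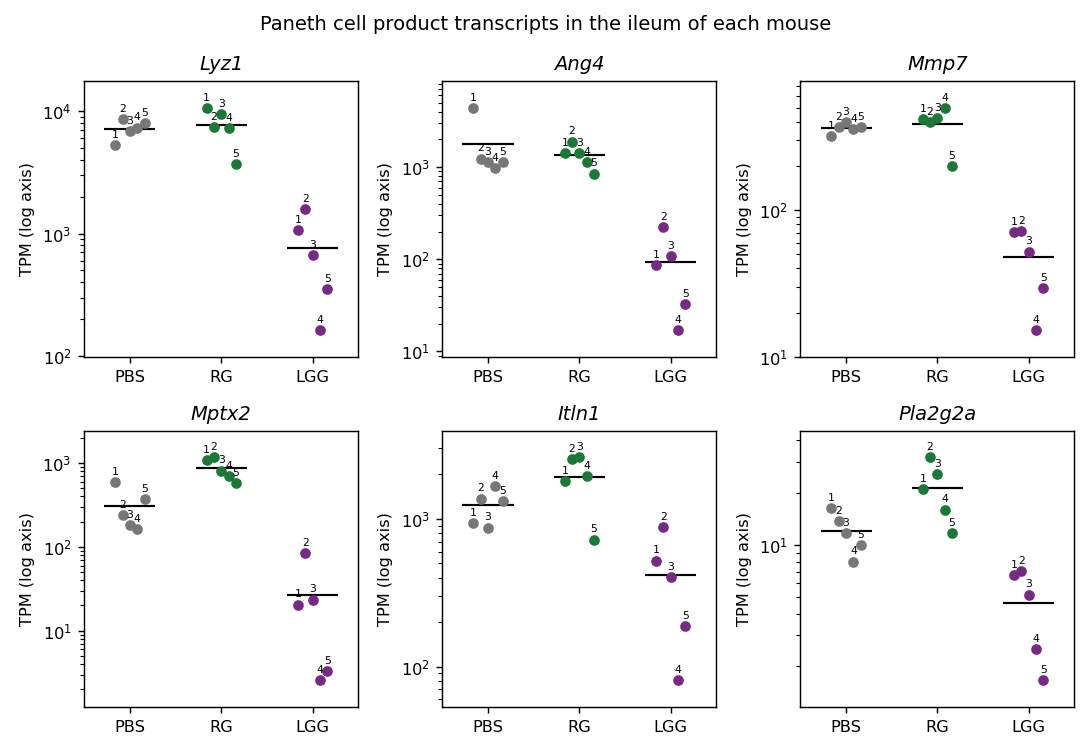
TPM of the 6 genes on a log axis in each mouse (points, numbered by mouse) of the PBS, RG and LGG groups, with the group mean as a bar. The LGG mice lie below every PBS mouse for 5 of the 6 genes, and for Itln1 LGG mouse 2 lies just above the lowest PBS mouse.

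Lyz1, the lysozyme of Paneth cells, was at 5234, 8589.8, 6841, 7319 and 7992 TPM in PBS mice 1 to 5. In RG mice 1 to 5 it was at 10634, 7445, 9470.3, 7224 and 3710.2 TPM. LGG mice 1 to 5 had 1063, 1587, 664, 162 and 353 TPM. The RG mice straddled the PBS range, with mice 1 and 3 above it and mouse 5 below it, whereas every LGG mouse was below every PBS and RG mouse. The LGG mean was 10.6% of the PBS mean, and by mean TPM the gene ranked 146th of those listed in LGG. On the log2(TPM + 1) scale LGG differed from PBS by -3.62 (SE 0.477) and RG from PBS by 0.03 (SE 0.477). With median-of-ratios scaling the latter was -0.34 and after upper-quartile scaling -0.24, so RG and PBS had no fixed order.

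Mmp7, the protease that activates alpha-defensins in mice, varied least among the germ-free mice, with 320.0, 370.2, 401, 358 and 371 TPM and a coefficient of variation of 8.03%. The RG mice had 418, 397, 427, 500.0 and 200.2 TPM. LGG mice 1 to 5 had 70.5, 72.2, 52.2, 15.1 and 29.3 TPM. RG mouse 5 was again the lowest of its group and below every PBS mouse, and all LGG mice lay below all others. LGG differed from PBS by -3.10 and RG by 0.04 on the log2 scale (SE 0.355 for both), and the RG value was -0.34 with median-of-ratios and -0.23 with upper-quartile scaling.

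Ang4, the bactericidal ribonuclease, was at 4409 TPM in PBS mouse 1 and at 1235, 1124, 974 and 1123 TPM in PBS mice 2 to 5. The RG mice had 1414, 1898, 1417, 1139 and 851 TPM. In the LGG mice it was at 85.8, 222, 109, 16.9 and 32.5 TPM. PBS mouse 1 alone stood apart from the rest of its group, and the LGG mean was 5.26% of the PBS mean, or 8.37% without that mouse. The log2 difference was -4.47 for LGG against PBS (SE 0.570) and -4.07 without PBS mouse 1. For RG against PBS it was -0.17 (SE 0.570) with PBS mouse 1 and 0.23 without it, so its sign rested on that mouse.

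PBS mouse 1 was also the highest of its group for markers of other tissues. The smooth muscle markers summed to 2622 TPM in this mouse and to 777 to 1288 TPM in the other PBS mice. For the pancreas, liver and kidney markers the values were 864 against 100 to 245 TPM, and for the B and plasma cell markers 291 against 47.2 to 91.2 TPM. Its colonic epithelium markers summed to 1013 TPM, and those of the other PBS mice to 126 to 531 TPM. The header of its column in the deposited table carries a suffix that no other column has, and the meaning of the suffix is not stated. The header of RG mouse 5 also differs, as it lacks a part that all other headers have, likewise without a stated reason. The part of these tissues in the Ang4 value was not tested.

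Mptx2 encodes mucosal pentraxin 2, a secreted member of the pentraxin family, and was the member with the largest difference between RG and PBS. PBS mice 1 to 5 had 587, 242, 182, 164 and 368 TPM. RG mice 1 to 5 had 1094, 1167, 813, 702 and 575 TPM. In LGG mice 1 to 5 the gene was at 20.4, 84.8, 23.5, 2.57 and 3.3 TPM. Of the RG mice 4 were above every PBS mouse, and RG mouse 5 fell just short of PBS mouse 1, so the groups overlapped by a single pair of mice. The RG mean was 282% of the PBS mean and the LGG mean 8.72% of it.

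The log2 difference of Mptx2 was 1.61 for RG against PBS (SE 0.683), which did not pass the adjusted threshold of 0.05. Median-of-ratios scaling gave 1.24 and upper-quartile scaling 1.34, and the value was between 1.42 and 1.88 when single mice were left out. Among the 3530 genes tested, 5 had a larger positive difference. The gene passed when the RG and PBS libraries were compared without the LGG libraries, and also when LGG mouse 2 or LGG mouse 4 was left out. For LGG against PBS the difference was -4.23 (SE 0.683), and -4.86 without LGG mouse 2, the highest LGG mouse.

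Itln1, the microbe-binding lectin, was at 33.7% of the germ-free mean in LGG, the highest share after Pla2g2a (38.8%). It was at 938, 1371, 872, 1670.4 and 1314 TPM in PBS mice 1 to 5. The RG mice had 1806, 2541, 2608, 1947 and 725 TPM. LGG mice 1 to 5 had 522, 880.3, 405, 80.8 and 189 TPM. RG mice 1 to 4 were above every PBS mouse and RG mouse 5 was below every one. LGG mouse 2 reached the lower end of PBS, and the other LGG mice lay below it. On the log2 scale the LGG mice differed from PBS by -1.95 (SE 0.518) and the RG mice by 0.56 (SE 0.518), the latter 0.87 without RG mouse 5 and short of the threshold either way. For LGG against PBS it was -1.07 without LGG mice 4 and 5, a choice made after the data were seen.

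Pla2g2a was low in all groups. PBS mice 1 to 5 had 16.2, 13.7, 11.7, 8 and 9.98 TPM. The RG mice had 21.0, 31.9, 25.6, 15.9 and 11.7 TPM. LGG mice 1 to 5 had 6.71, 7.07, 5.16, 2.51 and 1.65 TPM. RG mice 1, 2 and 3 lay above all PBS mice, and all LGG mice lay below them. Log2 differences from PBS were -1.30 for LGG and 0.74 for RG (SE 0.319 for both), and the latter did not pass. At these low levels the pseudocount of 1 makes log2 differences smaller than the change in TPM.

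**Figure D2:**
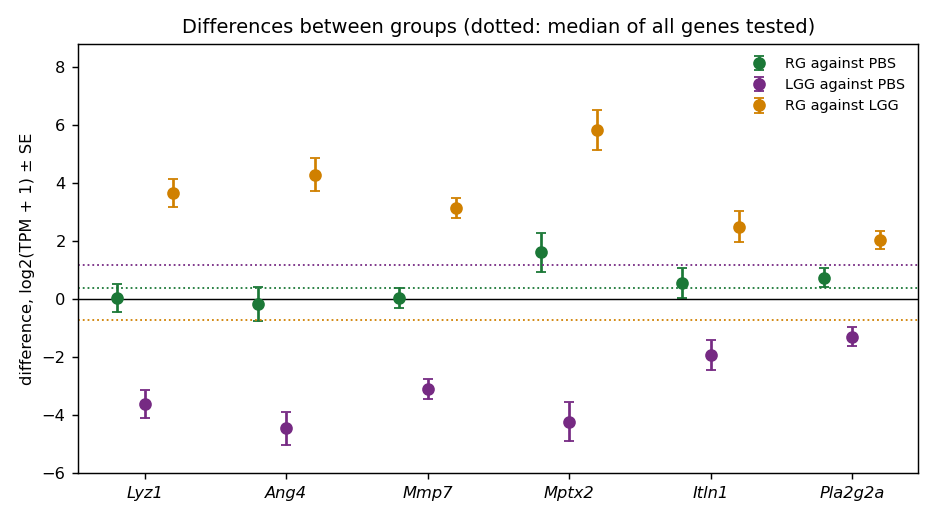
Difference in log2(TPM + 1) between groups for each gene, with its standard error (bars), and the median of all 3530 genes tested as dotted lines in the same colours. The standard errors come from 1 limma fit of all 15 libraries, 5 mice per group, with a spread shared by the 3 groups. The values for LGG against PBS are all below 0 while the median of all genes is 1.17, and the values for RG against PBS lie between -0.17 and 1.61.

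By count, all 6 members were called lower in LGG than in PBS (limma, Benjamini-Hochberg adjusted p under 0.05), where 71.2% of all genes tested were called, 16.5% lower and 54.7% higher. The groups did not overlap for 5 of the 6, against 14.9% of all genes tested that were lower and 53% that were higher without overlap. The members were listed because of such results, so nothing is read from this count. The median difference of the 6 was -3.36, beside 1.17 for all genes tested. Ranked from the lowest, Ang4 was 7th, Mptx2 8th, Lyz1 20th, Mmp7 28th, Itln1 35th and Pla2g2a 100th of 3530. All 6 were called under each alternative tried. Their differences ran from -5.48 to -2.15 with median-of-ratios scaling and from -3.51 to -0.67 after a trend with transcript length and GC content was removed.

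Between RG and PBS, 0 of the 6 members were called (limma), where 26.9% of all genes tested were called, 22.8% higher and 4.08% lower, and 2 members, Mptx2 and Pla2g2a, had an unadjusted p under 0.05, as did 1758 of the 3530 genes tested (49.8%). No member was free of overlap, against 13% of all genes that were higher and 2.72% that were lower without overlap. The median of the 6 was 0.30, beside 0.38 for all genes tested. Other scalings moved the median of all genes. For RG against PBS it became 0.04 by median of ratios and 0.14 by upper quartile, and for LGG 0.24 and 0.29.

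Compared directly, all 6 members were higher in RG than in LGG, where 61.6% of all genes tested were called, 8.19% higher and 53.5% lower, and 4.08% were higher and 36.4% lower without overlap. The log2 differences were 5.84 for Mptx2 (SE 0.683), 4.29 for Ang4, 3.65 for Lyz1, 3.14 for Mmp7, 2.5 for Itln1 and 2.04 for Pla2g2a. Groups did not overlap for 5 of them, and for Itln1 RG mouse 5 was below LGG mouse 2. The 3 comparisons share libraries, so these values are not independent of those against PBS.

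Among the LGG mice, mouse 2 was the highest for all 6 members, and mice 4 and 5 were the lowest pair for all 6. Mouse 4 was the lowest for 5 of them and mouse 5 for Pla2g2a. The spread within LGG was wide, with the highest mouse 33.0 times the lowest for Mptx2, 13.1 times for Ang4, 10.9 times for Itln1 and 9.82 times for Lyz1, and 4.79 and 4.28 times for Mmp7 and Pla2g2a. Among the RG mice, mouse 5 was the lowest for all 6. In PBS no mouse was lowest or highest throughout.

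**Figure D3:**
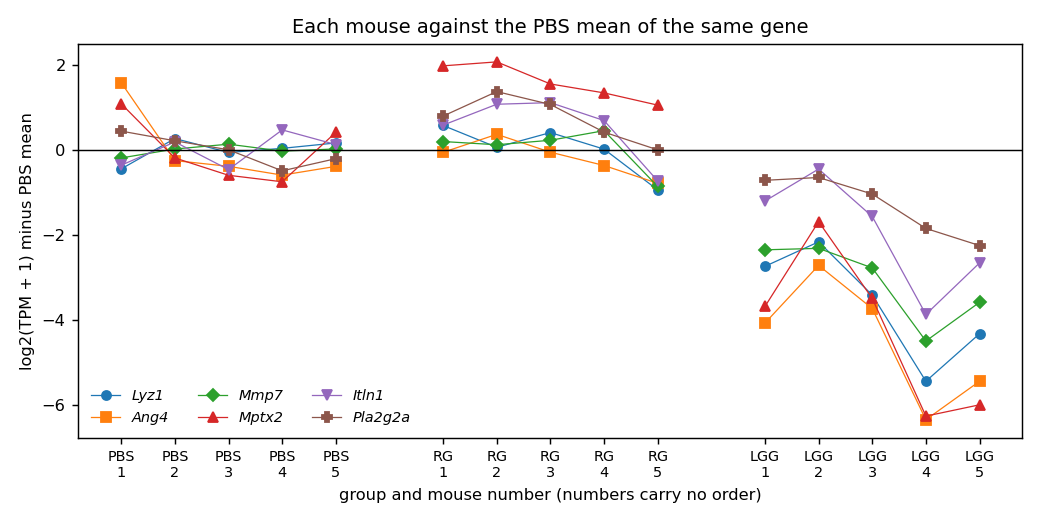
Difference of each mouse from the PBS mean of the same gene, in log2(TPM + 1), with mouse numbers within the PBS, RG and LGG groups on the x axis, 1 line per gene, and lines drawn only to guide the eye. RG mouse 5 is the lowest RG mouse and LGG mouse 2 the highest LGG mouse for every gene, and LGG mice 4 and 5 are the lowest pair of LGG mice.

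Markers of other cells moved with some of these mice. RG mouse 5, the lowest RG mouse, had the highest pancreas, liver and kidney sum of its group (181 TPM against 89.8 to 134). PBS mice 1, 2 and 3 had higher sums of these markers, at 864, 235 and 245 TPM. RG mouse 2, the highest RG mouse for Ang4, Mptx2 and Pla2g2a, stood apart in T cell markers (255 TPM against 9.93 to 17.5), and the part of these in the members was not tested. In LGG mouse 4 the 6 listed markers of colonic epithelium, a tissue that lacks Paneth cells in the mouse, summed to 26429 TPM, and in LGG mouse 5 to 2976 TPM. In LGG mice 1 to 3 they summed to 330.3, 351 and 725 TPM, within the PBS range of 126 to 1013 TPM. Nearly all of the sum in mouse 4 was carbonic anhydrase 1 (Car1, 25134 TPM). Without LGG mice 4 and 5 the differences of the members for LGG against PBS ran from -3.51 for Ang4 to -0.80 for Pla2g2a, with Lyz1 at -2.77, and all 6 were still called.

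The goblet cell markers, 4 of 12 in the table, summed to 17393 to 21723 TPM in germ-free mice, 8534 to 18051 with RG and 4062 to 10092 with LGG. All 4 were called lower in LGG than in PBS, where 16.5% of all genes tested were. The largest of these differences was -2.06 for Spink4 (limma, adjusted p = 4.06e-07), a goblet cell peptidase inhibitor gene. With the length and GC trend removed 2 of the 4 goblet cell markers were called lower. Agr2 and Ccl9, counted among these goblet cell markers, were also counted below among secreted products given as Paneth cell markers. Absorptive enterocyte markers went the other way, and summed to 1087 to 1599 TPM in PBS and 5884 to 9787 in LGG. Of 6 tested 6 were called higher in LGG, where 54.7% of all genes tested were. The count was 5 with median-of-ratios scaling or with the length and GC trend removed. Of the stem and transit cell markers none of 10 was analysed here, and of the macrophage markers 1 of 10, so the lysozyme gene of macrophages, Lyz2, was not set against Lyz1. The part of these cell types in the members' values was not tested.

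Levels relative to Lyz1 in the same library do not depend on how libraries are scaled to each other. Itln1 was at 12.8 to 22.8% of Lyz1 in PBS, 17.0 to 34.1% in RG and 49.1 to 61.0% in LGG. Itln1 thus made up a larger share relative to Lyz1 in each LGG mouse than in any other mouse, including LGG mice 4 and 5 at 50.0 and 53.6%. Mptx2 was at 2.23 to 4.61% of Lyz1 in PBS mice 2 to 5 and at 11.2% in PBS mouse 1. In RG it was at 8.58 to 15.7%, and in LGG at 0.935 to 5.34%.

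Mmp7 was at 4.31 to 6.11% of Lyz1 in PBS, 3.94 to 6.92% in RG and 4.55 to 9.34% in LGG. The medians were 4.89% in PBS, 5.33% in RG and 7.86% in LGG. LGG mice 3, 4 and 5, at 7.86, 9.34 and 8.31%, lay above every PBS and RG mouse. Ang4 was at 13.3 to 16.4% of Lyz1 in PBS mice 2 to 5, 13.3 to 25.5% in RG and 8.08 to 16.4% in LGG, and at 84.2% in PBS mouse 1. Its values in LGG mice 1, 4 and 5, at 8.08, 10.5 and 9.23%, lay below every PBS and RG mouse. Pla2g2a was at 0.109 to 0.310% of Lyz1 in PBS, 0.198 to 0.428% in RG and 0.446 to 1.55% in LGG. In LGG, Itln1 and Pla2g2a thus lay apart from the PBS and RG mice on this measure, and Ang4 and Mmp7 overlapped with them in part. Since Lyz1 itself was low in LGG, any gene that was less reduced is higher on this scale.

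**Figure D4:**
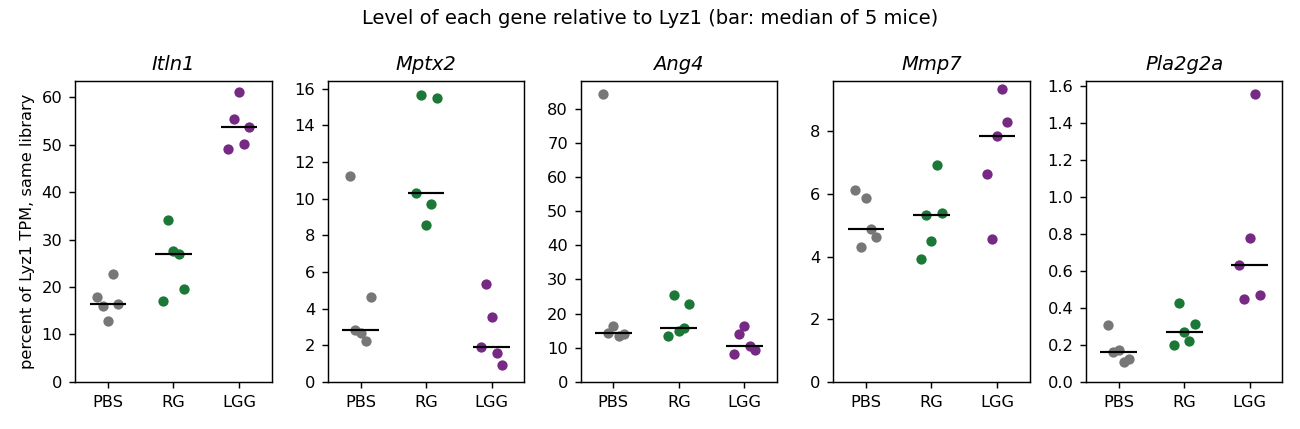
TPM of each gene as a percent of Lyz1 TPM in the same library, for each mouse (points) of the PBS, RG and LGG groups, with the median of 5 mice as a bar and a separate axis for each gene. Itln1 is at 49.1 to 61.0% in LGG and at most 34.1% elsewhere, and Ang4 in PBS mouse 1 (84.2%) stands apart.

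Profiles over the 15 libraries were then compared between genes, as a description. The measure was the mean absolute difference in log2(TPM + 1) after the PBS mean of each gene was taken off. Lyz1 and Mmp7 were the closest pair (0.328), followed by Itln1 and Pla2g2a (0.521), and Ang4 and Pla2g2a were the farthest (1.51). Among 3180 tested genes with a log2 range over 1, the nearest to Lyz1 were the alpha-defensin genes Defa38 (0.192), Defa21 (0.220) and Defa22 (0.243). Those nearest to Ang4 were Defa23 (0.406), Defa30 (0.471) and Defa3 (0.487), and those nearest to Mptx2 were Defa34 (0.606), Defa39 (0.749) and Defa37 (0.784). The nearest gene that is no alpha-defensin was Clps for each of these 3, at 0.455, 0.75 and 1.11.

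Clps, which encodes colipase, a cofactor of pancreatic lipase, was also the nearest gene to Mmp7 (0.390), ahead of Defa26 (0.390) and Defa40 (0.399). Itln1 had as nearest Habp2 (0.478), Defa29 (0.491) and Defa43 (0.557). For Pla2g2a they were Habp2 (0.342), its paralog Pla2g2f (0.425) and Smim38 (0.445), none of them a defensin. Habp2 encodes a secreted serine protease that binds hyaluronan. Distances are smaller for genes of low TPM, because the pseudocount damps their differences. Alpha-defensin genes resemble each other closely, and reads may have been divided among them, which leaves the value of any single defensin uncertain.

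Of 45 listed alpha-defensin genes and related sequences 27 were in the table and tested. In LGG 26 were called lower than in PBS and 1, Defa31, higher (limma), beside 16.5 and 54.7% of all genes tested. Between RG and PBS 0 were called, beside 26.9% of all genes tested. At an unadjusted p under 0.05 there were 0, beside 49.8% of all genes tested. Among those with the smallest p were Defa41 (-5.97, SE 0.525, adjusted p = 1.66e-07), Defa33 (-4.68), Defa28 (-3.58) and Defa32 (-4.57). Defa31, a near copy of other alpha-defensins with which reads could be divided, ranged from 184 to 1078 TPM across the LGG mice. All RG mice and all PBS mice but mouse 4 (56.5 TPM) have it listed at 0. The median over the 27 was -3.93 for LGG against PBS, beside -3.36 for the 6 members. As a share of members plus alpha-defensins, the members held 6.98 to 9.81% in PBS, 8.63 to 9.88% in RG mice 1 to 4 and 9.18 to 12.4% in LGG. RG mouse 5, with the lowest members of its group, held 5.18%. Its members made up 0.607% of all TPM, against 1.15 to 1.54% in the other RG mice, and its alpha-defensins 11.1%, against 12.2 to 14.6%.

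A list for granule packaging, zinc, autophagy and secretion was not limited to genes of Paneth cells, and its gene Chga was also listed as an enteroendocrine marker. Of 12 tested, 7 were called higher and 4 lower in LGG than in PBS, beside 54.7 and 16.5% of all genes tested. The share called higher was thus near that of all genes, and nothing about Paneth cells is read from it. The median of the 12 was 1.40, beside 1.17 for all genes tested. In RG 6 were called higher and 0 lower than in PBS, beside 22.8 and 4.08% of all genes tested. With median-of-ratios scaling the counts were 5 and 5 for LGG and 1 and 2 for RG. Tmed6, a cargo receptor family member of the early secretory pathway, averaged 17.4 ± 2.00 TPM in germ-free mice, 14.6 ± 3.34 with RG and 3.92 ± 0.538 with LGG. Its log2 difference was -1.90 for LGG against PBS (SE 0.162, adjusted p = 9.51e-08), and every LGG mouse lay below every other mouse. Slc30a2 encodes ZnT2, which loads zinc into Paneth cell granules in mice, and averaged 12.3 ± 1.22 TPM in germ-free mice, 21.6 ± 5.23 with RG and 50.9 ± 14.3 with LGG. It rose by 1.91 in LGG (SE 0.202, adjusted p = 4.87e-07) and by 0.74 in RG (SE 0.202, adjusted p = 0.0274). Slc39a4, a zinc importer of enterocytes, rose by 2.40 in LGG (adjusted p = 6.87e-08) and Stxbp2, a regulator of granule fusion, by 1.54 (adjusted p = 2.44e-07).

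Of 9 tested Paneth cell regulators and receptors 7 were called higher and 0 lower in LGG, beside 54.7 and 16.5% of all genes tested. The median of the 9 was 1.38, beside 1.17 for all genes tested. With median-of-ratios scaling 6 were higher and 2 lower of 10 tested. Removing the length and GC trend left 2 higher and 1 lower of 9, with a median of 0.20. Il22ra1, a receptor subunit for interleukin 22, averaged 23.6 ± 2.10 TPM in germ-free mice, 32.6 ± 8.20 with RG and 63.7 ± 6.30 with LGG (LGG against PBS 1.39, SE 0.155, adjusted p = 7.66e-07). Stat3, which acts downstream of that receptor, rose by 1.48, and the Wnt pathway genes Ctnnb1 and Fzd5 rose by 1.38 and 1.37. Bhlha15 of the same list, at 1.02 TPM in PBS, went the other way in LGG (-0.33, SE 0.191) and was not called. It was higher in RG than in LGG, by 0.74 (SE 0.191). Against PBS, 3 of the 9 were called higher in RG, where 22.8% of all genes tested were: Stat3 (0.60), Fzd5 (0.60) and the Wnt target Axin2 (0.84). The count was 1 with median-of-ratios scaling, with upper-quartile scaling or with the replicate block, and removing the length and GC trend left 0.

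Other secreted products that have been given as Paneth cell markers were 13 of 33 in the table, with 12 tested. In LGG 6 were called lower and 0 higher, beside 16.5 and 54.7% of all genes tested, and 11 were called lower with median-of-ratios scaling. Ccl9 and Agr2 of this list were also counted among the goblet cell markers, and both were called lower in LGG. Clps averaged 152 ± 36.1 TPM in germ-free mice, 162 ± 64.8 with RG and 23.8 ± 17.9 with LGG (-2.92, SE 0.438, adjusted p = 1.63e-05). The chemokine genes Ccl6 and Ccl9 were lower by log2 differences of -1.34 and -1.39, and Habp2 by -1.12. In RG the lectin gene Reg3g alone was called higher than in PBS, by 1.24 (adjusted p = 0.0482), with RG mouse 2 at 4819.6 TPM and the other RG mice at 559 to 2272. It was not called with median-of-ratios scaling (0.87, adjusted p = 0.157) or upper-quartile scaling (0.97, adjusted p = 0.0886), and no gene of this list was called higher with the replicate block or with the length and GC trend removed. Over all 60 other Paneth cell genes tested, 10 were called higher and 0 lower in RG, beside 22.8 and 4.08% of all genes tested. Of the 60, 1 was called without PBS mouse 3, and 2 each without PBS mouse 5, RG mouse 2 or RG mouse 3. When PBS mouse 1, RG mouse 2 and RG mouse 5 were all left out, 0 were called (limma, 12 at an unadjusted p under 0.05). The direction also turned with scaling. Of 6 called with median-of-ratios scaling 2 were higher, of 6 with upper-quartile scaling 3 were higher, and the 1 called with the length and GC trend removed was lower. In LGG 15 of the 60 were called higher and 36 lower than in PBS, beside 54.7 and 16.5% of all genes tested. Between RG and LGG 37 were higher in RG and 14 lower, beside 8.19 and 53.5% of all genes tested.

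Of 38 listed paralogs of the members, 10 were in the table and 8 tested. In LGG 2 were called higher and 2 lower than in PBS, beside 54.7 and 16.5% of all genes tested (median of the paralogs -0.42). With median-of-ratios scaling 1 was higher and 5 lower (median -0.94), and the counts were the same with upper-quartile scaling (median -0.90). Mptx1, the close relative of Mptx2, averaged 63.8 ± 40.6 TPM in germ-free mice, 39.0 ± 18.2 with RG and 37.7 ± 22.5 with LGG, and its log2 differences of -0.70 for RG and -0.75 for LGG did not pass (adjusted p = 0.209 and 0.148). PBS mouse 1 was highest for Mptx1 as well, at 135 TPM against 39.3 to 57.8 TPM. Among relatives of Ang4 in the ribonuclease family, Rnase1 rose by 1.65 in LGG (SE 0.284, adjusted p = 5.08e-05) and Rnase4 fell by 0.49 (adjusted p = 0.0362). Rnase12, at 1.00 TPM in PBS, fell by 0.50 in LGG (adjusted p = 0.0418), and Mmp15, a membrane-bound relative of Mmp7, rose by 1.5 (adjusted p = 0.000865). Pla2g2f, a relative of Pla2g2a, was higher in RG than in LGG by 0.92 (adjusted p = 0.00490), and Pla2g2d and Pla2g10 were called in no comparison. Lyz2 and the angiogenin genes nearest in sequence to Ang4 were not analysed here, and the counting of reads that such copies share is not stated.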

How the data were processed

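RNA of whole ileum was sequenced from 15 mice, 5 per group. Per the labels' protocols, total RNA was purified with an RNeasy Plus Universal kit before library preparation with the NEBNext Ultra II RNA kit. The authors deposited 1 table of TPM, a unit that corrects for transcript length and sums to a fixed total in each library. The submitters' processing notes name GRCm38 (mm10). For the aligner and counting tool, a name is not given in the sources used. The listed genes held 48.0 to 66.1% of all TPM, and the rule that chose them is not stated. Depth is unknown, because TPM does not keep it, and counting errors cannot be stated.

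Limma-trend with robust shrinkage (limma 3.58.1, R 4.3.3) was fitted to log2(TPM + 1) of all 15 libraries. A gene was tested at 1 TPM or more in at least 5 libraries, which kept 3530 genes and left out 648. P-values were two-sided and Benjamini-Hochberg adjusted over all genes tested, with a threshold of 0.05. Replicates are separate animals.

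The members and the gene lists were chosen with earlier results of these data known. Of each list up to 4 tested genes of smallest p in any comparison were named. All paralogs in the table, the 3 genes nearest in profile to each member and the nearest that is no alpha-defensin were named too. Axin2, Bhlha15, Defa31, Reg3g and Spink4 were named after their values were seen. Agr2 and Chga were named because another list holds them too. Alternatives were other pseudocounts, filters, scalings and sample sets, a replicate block, and removal of a trend with transcript length and GC content. Promoter windows came from RefSeq tables of GRCm38.p6 and positions are 1-based.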

Additional observations from a re-analysis of the deposited data

Results flagged for a closer look

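In each group of 5 mice, the highest and the lowest value of a member were set against the rest, and a value was singled out where its gap to the nearest other mouse exceeded 0.710 of the range of the group. Of 39 groups examined 5 held such a value, where chance gives about 5% of independent groups. These were not independent, since 3 of the 5 rest on the high Ang4 level of PBS mouse 1.

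PBS mouse 1 accounted for 4 of them. Its Ang4 level was 4409 TPM, against 1235 TPM in the next PBS mouse. Relative to Lyz1 in the same library, its Ang4 was at 84.2% and the next PBS mouse at 16.4%. Its Mptx2 was at 11.2% of Lyz1, with the next at 4.61%. Lyz1 made up 45.5% of the summed TPM of the 6 members in this mouse, and 69.8% in the next lowest PBS mouse. The header of its column carries a suffix that the other columns lack, with no stated meaning. Markers of smooth muscle, of B and plasma cells, of colonic epithelium and of pancreas, liver and kidney were highest in the same mouse among the PBS mice, and their part in these values was not tested.

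LGG mouse 2 gave the fifth, with Mptx2 at 84.8 TPM against 23.5 TPM in the next LGG mouse. This mouse was the highest of the LGG mice for every member, and its alpha-defensins held 2.82% of all TPM, while the other LGG mice had 0.217 to 1.49%.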

How the results depend on the processing

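The 6 members were called in LGG against PBS and in RG against LGG under all 25 alternatives, with the same direction, including the replicate block. For RG against PBS the count of members was 1 when the RG and PBS libraries alone were compared (Mptx2), 1 with the replicate block (Pla2g2a), 2 without LGG mice 4 and 5 (both, a choice made after the data were seen) and 0 to 1 when single libraries were left out. Of the other Paneth cell genes 10 were called for RG against PBS, all higher, and 6 with median-of-ratios scaling (2 higher), 6 with upper-quartile scaling (3 higher), 3 with the replicate block, 1 with the length and GC trend removed (lower), 0 when PBS mouse 1 and RG mice 2 and 5 were left out, and 1 to 15 when single libraries were left out.

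Of all genes tested, 948 were called for RG against PBS, 804 of them higher. The count was 607 with upper-quartile scaling (133 higher), 688 with median-of-ratios scaling (45 higher), 396 with the RG and PBS libraries alone, 174 with the replicate block, 134 with the length and GC trend removed (19 higher) and 0 when PBS mouse 1 and RG mice 2 and 5 were left out (limma, 963 at an unadjusted p under 0.05). When single libraries were left out it was 40 to 1595, namely 440, 40 and 125 on leaving out PBS mouse 1, 3 or 5, and 184, 177 and 1595 on leaving out RG mouse 2, 3 or 4. For RG against LGG 2176 were called (289 higher), 1418 with the length and GC trend removed (657 higher) and 1844 with median-of-ratios scaling (1249 higher). For LGG against PBS 2514 were called (1932 higher), and 2608 with median-of-ratios scaling (1178 higher). The members' summed TPM in PBS was 1.09% of all TPM. In the same unit the rescaled sum was 1.51 with median-of-ratios and 1.45 with upper-quartile scaling. Such scaling changes the sum and not the share within a library. The causes were not tested.

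Correlations of deviations between same-numbered mice ran from -0.455 to 0.288, and 4 of 15 exceeded 0.1, so no pairing by number was seen. These values cannot show whether mice shared a cage, litter or batch, which the labels do not give. Depth is unknown, so it is not known how far counting noise limits Pla2g2a and the lowest LGG values of Mptx2.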
